A study of Mus musculus with 15 samples.

Results

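The genes described here are 9 members of the hedgehog pathway in the mouse auditory nerve: the ligands Shh and Dhh, the receptor Ptch1, the signal transducer Smo, the co-receptor Gas1, the ligand-binding protein Hhip, and the transcription factors Gli1, Gli2 and Gli3. The members were taken by symbol. All 23 probe sets that the platform annotation pairs with these symbols alone were read, of 45101 probe sets on the array. The set was selected on the log2 values of these same arrays over the 5 groups. Differences between groups in the 9 genes are therefore given as a description, with no p-value, and nothing is supported with them.

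Hedgehog ligands are secreted, lipid-modified proteins that bind the membrane protein Ptch1. Free Ptch1 holds back Smo, and ligand binding releases Smo to act through the GLI transcription factors, largely at the primary cilium. Gli1, Ptch1 and Hhip are themselves transcribed in response to GLI activity in many tissues, so that Ptch1 and Hhip limit the signal. In peripheral nerve, Dhh comes from Schwann cells and is needed for the perineurial sheath to form. Shh patterns the inner ear during development.

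Each array was labelled as the auditory nerve of 1 adult CBA/CaJ mouse, with the tissue of its 2 ears pooled, dissected as the modiolus, the core of the cochlea that keeps some other cochlear tissue. The mice were 5 to 12 weeks old. Control mice had no noise exposure (n = 3, all female). The noise-exposed mice spent 2 hours in noise of the octave band 8 to 16 kHz at a level of 106 dB SPL, and were taken immediately afterwards (n = 3, 2 females and 1 male), after 1 day (n = 3, all male), after 7 days (n = 3, 2 females and 1 male) or after 14 days (n = 3, 2 females and 1 male). Biotin-labelled RNA was made from 50 ng of total RNA and measured on 1 Affymetrix array per sample. Sex and group cannot be told apart between the 1-day mice and the control mice.

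Values are the authors' log2 signals, so that a difference of 1 is a doubling. Array medians lay between 5.87 and 5.92, and no 2 arrays shared more than 3.67% of their values. All 11 neuron markers were measured above the level of the lowest 25% of genes (log2 4.70), up to Snap25 with a mean of 13.43, and so were the 8 Schwann cell myelin markers that had a probe set, up to Pmp22 with 13.28. Markers of neighbouring tissue were also high, with a mean log2 signal of 14.20 for the fibrocyte gene Coch and 11.22 for the bone gene Dmp1. The 1-day arrays stood apart on the first principal component of all genes, at scores of 13.8 to 22.4 against -15.0 to 3.1 for the other 12 arrays.

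Of the 9 genes, 7 had an entry in the RefSeq promoter table (GRCm38.p6), which gives 250 bases before each annotated start. Shh and Gli1 are named only. Letter strings for 6 known binding motifs were searched on both strands of those 250 bases in all 32851 promoters. The motifs were chosen after the sequences were seen. The 3 stretches printed, each of 60 bases and 5′ to 3′ on the gene's strand, hold the 3 strings that were found in 1 member promoter each, with the string in capitals: the GLI core ACCACCC in Gli2 (read on the opposite strand, its first base 205 bases before the start), the cyclic AMP response element TGACGTCA in Hhip (75 bases before the start) and the CCAAT box in Gas1 (68 bases before the start).
Gli2, chr1:119053791-119053850, minus strand: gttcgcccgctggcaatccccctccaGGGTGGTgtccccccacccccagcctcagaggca
Hhip, chr8:80058050-80058109, minus strand: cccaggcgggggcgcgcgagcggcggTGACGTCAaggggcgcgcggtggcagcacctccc
Gas1, chr13:60177570-60177629, minus strand: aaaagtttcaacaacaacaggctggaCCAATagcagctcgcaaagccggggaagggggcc

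The GLI core was in 3.92% of all promoters and in 1 of the 7 member promoters. The cyclic AMP response element was in 1.55% of all promoters and the CCAAT box in 33.8%, each in 1 of the 7. The GC box GGGCGG was in 6 of the 7 member promoters, all but Smo, and in 32.7% of all promoters. The longer GLI string GACCACCCA, which overlaps the core, was in none of the 7 and in 0.225% of all. The AP-1 string TGANTCA was in none of the 7 and in 6.75% of all. A match is a string of letters and no evidence of binding, and the windows do not cover distant enhancers.

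Shh was higher than its controls in every noise-exposed mouse on its brighter probe set. Its brighter probe set (1436869_at) had log2 signals of 7.79, 7.78 and 8.07 in the control mice, 8.41, 8.23 and 8.48 immediately after noise, 8.13, 8.11 and 8.12 at 1 day, 8.31, 8.75 and 8.49 at 7 days, and 8.22, 8.26 and 8.32 at 14 days. All 12 noise-exposed mice were above the highest control mouse, and the 1-day mice were the closest to it. The difference from control was 0.49 ± 0.10 immediately (log2 fold change ± SE of the fit, n = 3 each), 0.24 ± 0.10 at 1 day, 0.64 ± 0.10 at 7 days and 0.39 ± 0.10 at 14 days, or 1.41-, 1.18-, 1.55- and 1.31-fold. All 4 noise groups are set against the same 3 control mice, so these differences are not independent of each other.

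Among female arrays alone, Shh was higher than in control mice by 0.44 immediately, by 0.74 at 7 days and by 0.41 at 14 days on the log2 scale. With sex as a term the immediate difference was 0.52 ± 0.11 and the 1-day difference 0.31 ± 0.14. The other Shh probe set (1427571_at) averaged a log2 signal of 4.0, below the filter level, with values of 3.64 to 4.25 over the 15 arrays, and it correlated with the brighter one at r = 0.51 (Spearman's rho 0.53, n = 15). On the dim probe set every noise group overlapped the control mice. Its differences from control were 0.10, 0.08, 0.14 and -0.01 at the 4 times in order, each ± 0.12. Averaging both probe sets gave an immediate difference of 0.30 ± 0.10. The Shh difference thus rests on the brighter probe set.

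Dhh, the Schwann cell ligand, was also highest on average at 7 days, with smaller differences from control than Shh. Its brighter probe set (1434959_at) had log2 signals of 8.55, 8.69 and 8.72 in the control mice, 8.90, 8.78 and 8.85 immediately after noise, 8.80, 8.72 and 8.97 at 1 day, 8.88, 9.13 and 8.81 at 7 days, and 8.85, 8.84 and 8.90 at 14 days. The immediate, 7-day and 14-day mice were all above the control mice, and at 1 day the lowest mouse was level with the highest control mouse. The log2 differences from control were 0.19 ± 0.08 immediately, 0.18 ± 0.08 at 1 day, 0.29 ± 0.08 at 7 days and 0.21 ± 0.08 at 14 days (n = 3 each). The dimmer Dhh probe set (1422127_at) was clear of the control mice at 7 days, with 6.66, 6.54 and 6.64 against 6.13, 6.28 and 6.03 in the controls, and at 14 days, with 6.53, 6.49 and 6.38. On that probe set the 7-day difference was 0.47 on the log2 scale. It overlapped the control mice immediately after noise (0.10 ± 0.11) and at 1 day (0.16 ± 0.11).

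Markers of myelinating Schwann cells, which make Dhh, were mostly higher immediately after noise, and their mean was also above the control mice at 14 days. Of 8 markers, 5 were higher than in control mice immediately, 2 at 1 day, 3 at 7 days and 4 at 14 days. The median difference over these markers was 0.15, -0.07, -0.04 and 0.01 in that order. Their mean log2 signal over 8 genes was 10.79 to 10.87 in control mice, 10.95 to 11.06 immediately after noise, 10.67 to 10.84 at 1 day, 10.86 to 11.01 at 7 days and 10.88 or more at 14 days. The immediate and 14-day mice did not overlap the control mice in this mean. Immediately after noise 0 of the 8 markers passed limma's test and 6 had an unadjusted p under 0.05. The mean of the 11 neuron markers was 9.78 to 9.86 immediately after noise, against 9.69 to 9.75 in control mice, with 0 called by limma and 4 at an unadjusted p under 0.05. At 1, 7 and 14 days this mean overlapped the control mice, at 9.69 to 9.96, 9.69 to 9.85 and 9.69 to 9.92. Over all genes 0.931% were called immediately after noise, and 2111 of 13644 had an unadjusted p under 0.05 in limma's test. The part of Schwann cells and neurons in the Dhh and Shh values was not tested.

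**Figure D1:**
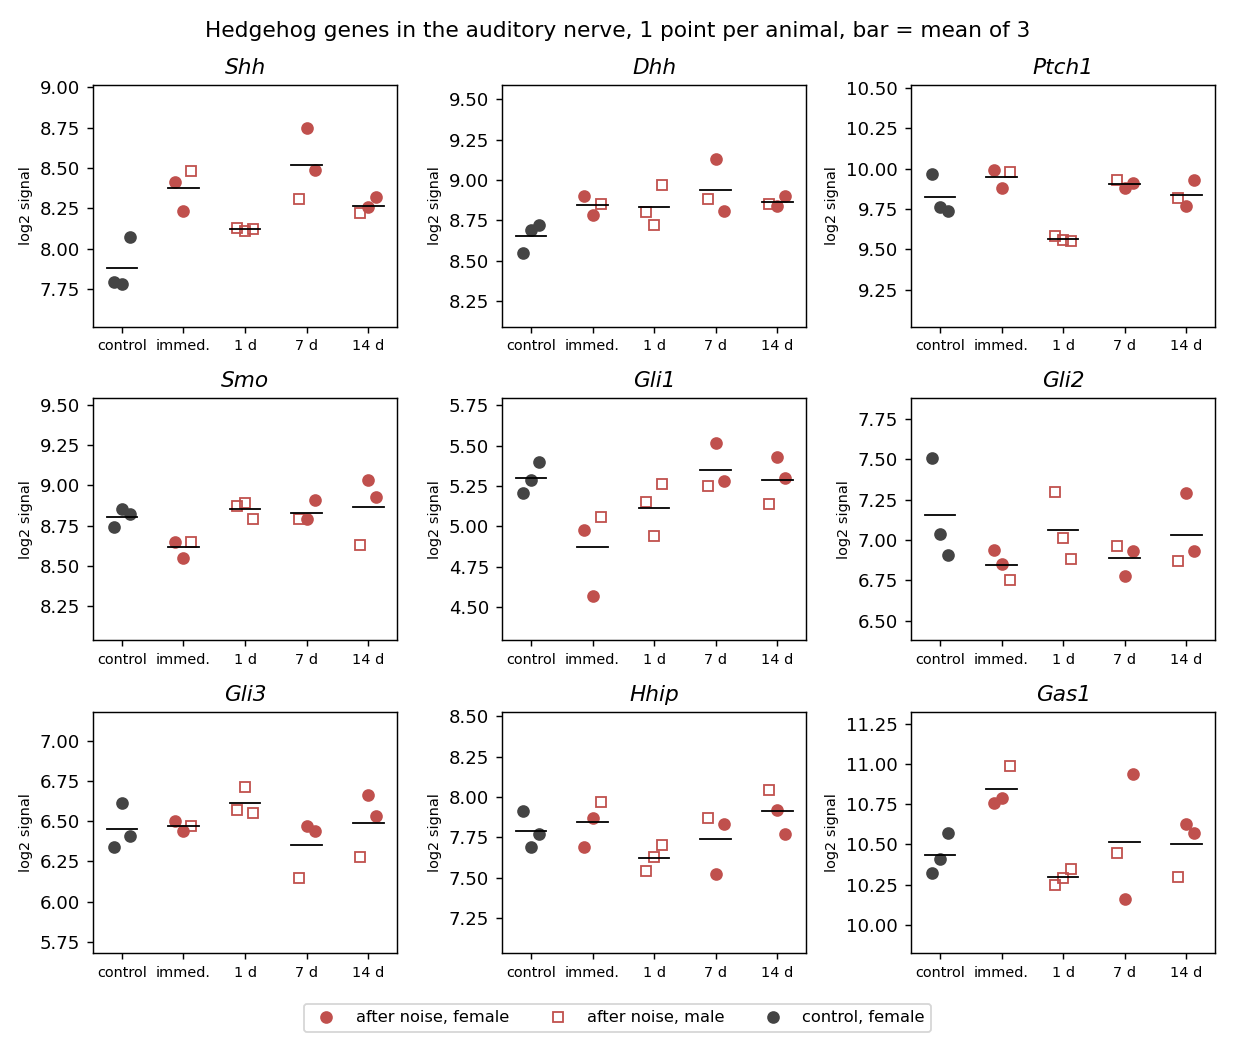
Log2 signal of the brightest probe set of each of the 9 genes (vertical axes, each spanning 1.5 log2 units) in every mouse, by group along the horizontal axis; bars are group means of 3, filled circles are females and open squares males. All 12 noise-exposed mice lie above the 3 controls for Shh, and the 3 mice at 1 day lie below every other mouse for Ptch1.

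Ptch1, the receptor, was lower at 1 day than in any other group. Its brightest probe set (1428853_at) had log2 signals of 9.97, 9.76 and 9.74 in the control mice, 9.99, 9.88 and 9.98 immediately after noise, 9.58, 9.56 and 9.55 at 1 day, 9.93, 9.88 and 9.91 at 7 days, and 9.82, 9.77 and 9.93 at 14 days. The 3 values at 1 day lay within 0.03 of each other and below all 12 other arrays, while the other 4 groups overlapped. Ptch1 differed from control by -0.26 ± 0.06 at 1 day (0.835-fold), and by 0.13 ± 0.06 immediately, 0.08 ± 0.06 at 7 days and 0.02 ± 0.06 at 14 days. It was higher by 0.34 ± 0.06 at 7 days than at 1 day (1.27-fold). In a whole nerve, fewer cells that make Ptch1 and less Ptch1 RNA per cell cannot be told apart.

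The other Ptch1 probe sets (1439663_at and 1450824_at) were much dimmer, with mean log2 signals of 5.59 and 5.54, and did not follow the brightest one (r = 0.26 and -0.03, rho = 0.20 and -0.13 over 15 arrays). On those 2 probe sets the 1-day mice overlapped the control mice, with 5.87, 5.37 and 5.25 against 5.87, 5.39 and 5.64, and with 5.63, 5.28 and 5.75 against 5.41, 5.54 and 5.19. Averaged over the 3 probe sets the 1-day difference was -0.07 ± 0.07. With sex as a term, the brightest probe set gave -0.28 ± 0.09 at 1 day against control and 0.35 ± 0.07 at 7 days against 1 day.

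Several markers of other cells moved at 1 day together with Ptch1. Of 8 macrophage markers, 5 rose at 1 day by limma's test, Cd68 by 1.95 ± 0.20 on the log2 scale (adjusted p = 0.000574), and the mean log2 signal over the list was 7.94 to 8.07 in 1-day mice against 6.98 to 7.19 in control mice. Of 7 cartilage and tendon markers with a level above the filter, 3 fell, with list means of 7.61 to 7.78 in 1-day mice against 7.94 to 8.30 in control mice. Of 7 bone markers, 2 fell (7.30 to 7.75 in 1-day mice against 7.99 to 9.38 in control mice). Of 8 Schwann cell myelin markers, 2 fell, Ncmap by 0.32 and S100b by 0.30, with list means of 10.67 to 10.84 in 1-day mice against 10.79 to 10.87 in control mice. Among 9 supporting cell and fibrocyte markers 1 was called, Otos, which fell by 0.51 (limma, adjusted p = 0.000994). In that list 5 were higher and 4 lower. Among 6 hair cell markers 1 was called, Calb2, also a gene of neurons, which fell by 0.25 (limma, adjusted p = 0.0174), with 3 higher and 3 lower. Among 11 neuron markers 1 was called, Uchl1, which rose by 0.53 (limma, adjusted p = 0.00427), with 4 higher and 7 lower. No perineurial or repair Schwann cell marker was called against control at 1 day in this limma fit (0 of 11 and 0 of 9, with 2 and 4 at an unadjusted p under 0.05). No oligodendrocyte, astrocyte or endothelial marker was called at 1 day by limma's test (0 of 7, 0 of 6 and 0 of 8). In these lists 0 had an unadjusted p under 0.05. Over all genes 3.18% were called at 1 day, and 2447 of 13644 had an unadjusted p under 0.05 in limma's test. The part of the listed cells in the Ptch1 value was not tested.

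Smo, which passes the signal on once Ptch1 is bound, was lower immediately after noise. Its brightest probe set (1427049_s_at) had log2 signals of 8.74, 8.85 and 8.82 in the control mice, 8.65, 8.55 and 8.65 immediately after noise, 8.87, 8.89 and 8.79 at 1 day, 8.79, 8.79 and 8.91 at 7 days, and 8.63, 9.03 and 8.93 at 14 days. The 3 immediate mice were below the 3 control mice, and the other noise groups overlapped the controls. The immediate difference was -0.19 ± 0.08, and the later ones lay between 0.03 and 0.06 with an SE of 0.08. With sex as a term the 1-day difference was 0.17 ± 0.10. The next Smo probe set (1427048_at) had 8.02, 7.91 and 7.94 immediately against 8.07, 8.20 and 8.05 in the control mice, again without overlap. A dim Smo probe set (1442215_at, mean 4.77) overlapped the control mice at every time, with an immediate difference of -0.25 ± 0.17.

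Gas1, a membrane-anchored co-receptor that binds hedgehog ligands, was higher immediately after noise. Its brightest probe set (1416855_at) had log2 signals of 10.32, 10.41 and 10.57 in the control mice, 10.76, 10.79 and 10.99 immediately after noise, 10.25, 10.29 and 10.35 at 1 day, 10.45, 10.16 and 10.94 at 7 days, and 10.30, 10.63 and 10.57 at 14 days. The immediate mice were above every control mouse, and the 7-day mice spread over a wider range than any other group. Gas1 differed from control by 0.41 ± 0.15 immediately (1.33-fold) and by -0.14 ± 0.15 to 0.08 ± 0.15 at the later times.

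The second Gas1 probe set (1448494_at) gave a difference in the same direction. It had 9.02, 9.08 and 9.46 immediately against 8.41, 8.57 and 8.70 in the control mice, higher by 0.63 on the log2 scale, and it followed the first at r = 0.99 (rho = 0.98, n = 15). At 1 day it had 8.29, 8.29 and 8.39, all below the control mice. The third (1456322_at) was dim, with a mean of 5.10, and overlapped between these groups (5.18, 5.50 and 5.04 against 4.94, 4.99 and 5.16). Among female arrays alone the immediate difference on the first probe set was 0.34 ± 0.18.

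Hhip, a decoy that binds hedgehog ligands at the cell surface, overlapped its controls at every time on its brightest probe set (1455277_at). That probe set had log2 signals of 7.91, 7.69 and 7.77 in the control mice, 7.69, 7.87 and 7.97 immediately after noise, 7.54, 7.63 and 7.70 at 1 day, 7.87, 7.52 and 7.83 at 7 days, and 8.04, 7.92 and 7.77 at 14 days. Differences from control ran from -0.17 ± 0.11 at 1 day to 0.12 ± 0.11 at 14 days, and the 1-day difference was -0.36 ± 0.12 with sex as a term. Of its other probe sets, 1421426_at had 6.46, 6.60 and 6.59 immediately against 6.30, 6.39 and 6.26 in the control mice, with 6.16, 6.12 and 6.25 at 1 day and 6.46, 6.59 and 6.46 at 14 days. On that probe set the immediate and 14-day mice were above the control mice and the 1-day mice below them. The probe sets 1437933_at and 1438083_at overlapped the control mice at every time, with differences of -0.14 ± 0.15 and 0.03 ± 0.15 at 14 days.

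Gli1, the GLI factor whose own transcription follows pathway activity most closely in many tissues, was lower immediately after noise on its only probe set (1449058_at). Its log2 signals were 5.21, 5.29 and 5.40 in the control mice, 4.98, 4.57 and 5.06 immediately after noise, 5.15, 4.94 and 5.26 at 1 day, 5.25, 5.52 and 5.28 at 7 days, and 5.14, 5.43 and 5.30 at 14 days. The immediate mice were all below the control mice, with mouse 2 well below its group. The difference was -0.43 ± 0.14 immediately (0.742-fold), -0.18 ± 0.14 at 1 day, 0.05 ± 0.14 at 7 days and -0.01 ± 0.14 at 14 days. Without immediate mouse 2 the immediate difference was -0.28 ± 0.13. These values lie close to the filter level of 4.70.

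Gli2, the main activator downstream of Smo, overlapped its controls at every time. Its brighter probe set (1459211_at) had log2 signals of 7.51, 7.04 and 6.91 in the control mice, 6.94, 6.85 and 6.75 immediately after noise, 7.30, 7.01 and 6.88 at 1 day, 6.96, 6.78 and 6.93 at 7 days, and 6.87, 7.29 and 6.93 at 14 days. One control mouse was higher than all 14 other arrays, and the differences from control, -0.31 to -0.09 with an SE of 0.15, include it. Without that mouse, control mouse 1, they were -0.13 immediately, 0.09 at 1 day, -0.08 at 7 days and 0.06 at 14 days. The sign thus turned at 1 and 14 days. The dimmer Gli2 probe set (1446086_s_at) also overlapped the control mice at every time. It differed from them by -0.21, -0.09, -0.25 and 0 in the same order, each ± 0.14.

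Gli3, which acts largely as a repressor when no ligand is present, also overlapped its controls on its brightest probe set (1456067_at). That probe set had log2 signals of 6.34, 6.61 and 6.41 in the control mice, 6.50, 6.44 and 6.47 immediately after noise, 6.57, 6.71 and 6.55 at 1 day, 6.15, 6.47 and 6.44 at 7 days, and 6.28, 6.66 and 6.53 at 14 days. A second probe set (1455154_at) had 6.31, 6.62 and 6.42 at 1 day against 5.96, 6.16 and 6.16 in the control mice, a difference of 0.36 on the log2 scale with no overlap. At 14 days it had 6.20, 6.36 and 6.19, also above the control mice, by 0.16. The brightest one differed by 0.16 ± 0.11 at 1 day, and by 0.36 ± 0.13 with sex as a term. Between 7 days and 1 day the brightest differed by -0.26 ± 0.11 and the second by -0.37 ± 0.10, both without overlap. The third (1450525_at, mean 4) lay below the filter level and overlapped in all these comparisons.

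**Figure D2:**
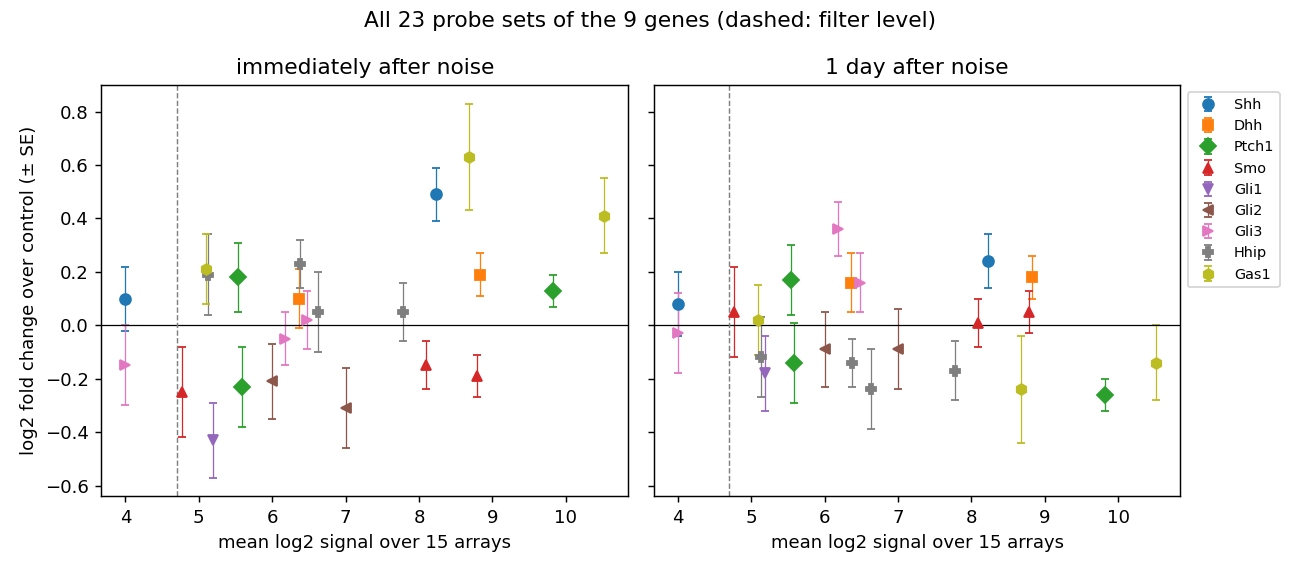
Log2 fold change over control with its SE (vertical axis) of all 23 probe sets against their mean log2 signal over 15 arrays (horizontal axis), immediately and 1 day after noise; the dashed line is the filter level of 4.70. Probe sets of one gene share a colour, and 21 of the 23 lie above the line.

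Across the 9 genes, each on its brightest probe set, differences of both signs were found. Immediately after noise, 5 of the 9 genes had all 3 noise-exposed mice on one side of the 3 control mice (Shh, Dhh and Gas1 above, Smo and Gli1 below), against 21.2% of all 13644 genes. At 1 day these were 2 of 9 (Shh above, Ptch1 below), against 22.6% of all genes. At 7 days they were 2 of 9, Shh and Dhh, both above, against 12.8% of all genes. At 14 days they were again Shh and Dhh, both above, against 14.2%. The median difference from control over the 9 genes was 0.05 immediately, -0.09 at 1 day, 0.05 at 7 days and 0.06 at 14 days, against -0.02, -0.01, 0.01 and 0.02 over all genes.

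Because the genes were picked on these arrays, the number of them past the threshold of the limma fit over all genes (adjusted p under 0.05) is only a description of the choice, and nothing is read from it. It was 1 of 9 immediately after noise (Shh, higher), against 0.931% of all genes, and 1 of 9 at 1 day (Ptch1, lower), against 3.18%. It was 0 of 9 at 7 days, against 0.022%, and 0 of 9 at 14 days, against 0%. Between 7 days and 1 day it was 2 of 9 (Shh and Ptch1, both higher at 7 days), against 9.35%. At an unadjusted p under 0.05 the counts against control were 5, 2, 2 and 2 of 9 at the 4 times in order, beside 2111, 2447, 1525 and 1071 of all 13644 genes.

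With each array left out in turn, the immediate Shh difference stayed between 0.44 and 0.59 and the 1-day Ptch1 difference between -0.30 and -0.19. The difference between 7 days and 1 day stayed between 0.28 and 0.50 for Shh and between 0.33 and 0.36 for Ptch1. Of these 15 fits, the immediate Shh difference fell short of the threshold in 8 and the 1-day Ptch1 difference in 7. Between 7 days and 1 day this was so in 4 for Shh and in 0 for Ptch1. Like the counts above, these describe genes picked on these arrays, and nothing is read from them.

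**Figure D3:**
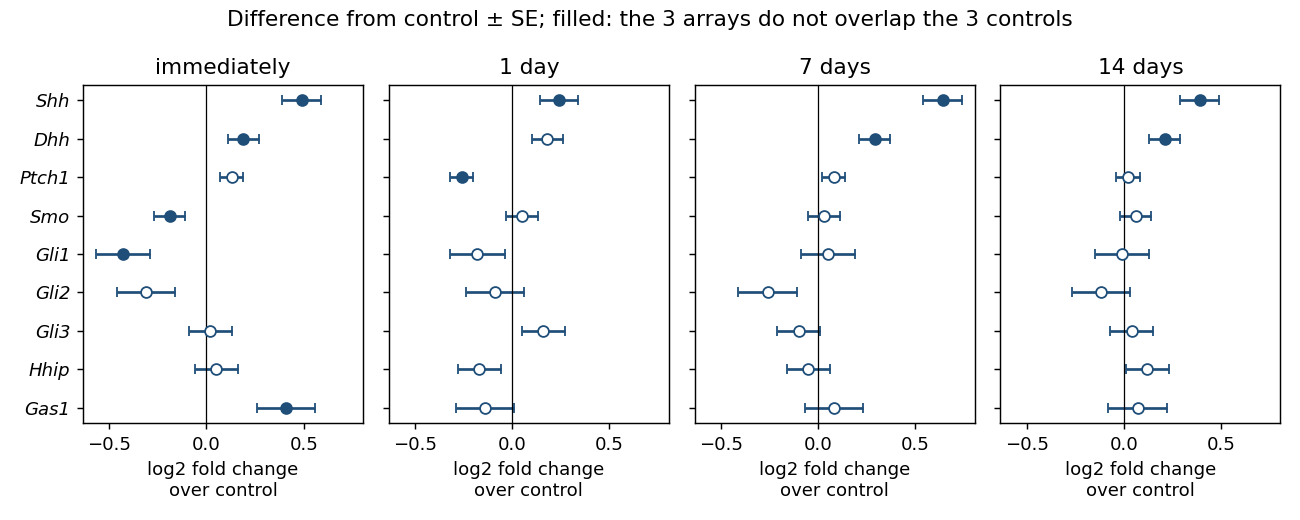
Log2 fold change over control of the 9 genes (rows) with the SE of the fit, immediately and 1, 7 and 14 days after noise; filled points mark differences where the 3 noise-exposed arrays do not overlap the 3 controls. Shh is filled at all 4 times and Dhh at 3, while Ptch1 is filled at 1 day alone.

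Sex was not used in choosing the genes and could be tested in the 3 groups that held both sexes. None of the 9 genes passed limma's test between males and females, against 0.044% of all genes. An unadjusted p under 0.05 was found for 2 of the 9, Gli3 and Hhip, beside 566 of all 13644 genes. Hhip was higher in males by 0.19 ± 0.08 on the log2 scale and Gli3 lower in males by 0.21 ± 0.09, and all 9 adjusted p-values from limma were between 0.989 and 0.994. Shh differed between males and females by -0.07 ± 0.09, Dhh by -0.03 ± 0.08 and Ptch1 by 0.02 ± 0.06. The estimate rests on 3 males and 6 females, so small sex differences were not detectable.

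The pathway genes outside the 9 were read from 4 lists of 74 genes, of which 68 had a probe set and 62 were tested. The lists were chosen with earlier results of these data known, so their calls may not be independent of that choice. Any difference among the 5 groups was called by limma's F test in 6 of these 62 genes, against 921 of all 13644. Their median difference from control was 0.00 immediately, -0.04 at 1 day, 0.04 at 7 days and 0.05 at 14 days.

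Of 9 other ligand, release and receptor genes, none was called in any comparison with control, and 2, 2, 2 and 1 had an unadjusted p under 0.05 in limma's test immediately and at 1, 7 and 14 days. Boc and Cdon, co-receptors that work beside Gas1, differed from control by -0.11 to 0.02 and by -0.06 to 0.20 on the log2 scale. Ihh, the other hedgehog ligand, was left out by the filter on low values. Lrp2, the endocytic receptor megalin, singled out after its values were seen, differed from control by 1.013, 0.85, 0.853 and 0.807 at the 4 times in order, each ± 0.324, with adjusted p-values from limma of 0.151 to 0.585.

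Of 24 other signal transduction genes, 2 were called at 1 day. Efcab7, which holds the Evc-Evc2 complex in its zone of the cilium where that complex relays Smo activity, had log2 signals of 6.08, 5.83 and 5.79 in 1-day mice against 6.63, 6.48 and 6.51 in control mice. It fell by 0.64 ± 0.10 (limma, adjusted p = 0.00467, 3 of 3 below), and kept its call with sex as a term (adjusted p = 0.0412) and without any single array. At 7 days it was at 6.50, 6.37 and 6.46, higher than at 1 day by 0.54 ± 0.10 (limma, adjusted p = 0.00646).

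Gsk3b, a kinase that phosphorylates GLI proteins ahead of their processing and also serves WNT signalling, had 10.32, 10.38 and 10.33 in 1-day mice against 10.02, 10.05 and 9.98 in control mice. It rose by 0.33 ± 0.06 (limma, adjusted p = 0.00899) and was lower at 7 days than at 1 day by a difference of -0.27 (adjusted p = 0.0131). With sex as a term the limma adjusted p was 0.121 for the 1-day difference and 0.0753 for that between 7 days and 1 day, and with the mean over probe sets the 1-day one was 0.0851. The call was lost without control mouse 3 or without 1-day mouse 2 (0.31 in both), and that between 7 days and 1 day without 1-day mouse 2 (-0.25).

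Stk36, a kinase related to the fly hedgehog gene fused and needed in mice for the central pair of motile cilia, was dim and was called between 7 days and 1 day alone. It had 5.70, 5.32 and 5.46 in 7-day mice against 4.69, 4.59 and 4.79 in 1-day mice, higher by 0.80 ± 0.16 (limma, adjusted p = 0.00835, and 0.0208 with sex as a term). Averaged over its probe sets the difference was 0.38 ± 0.10 (limma, adjusted p = 0.0402). Cul3, a ubiquitin ligase scaffold that works with Spop on GLI proteins, was lower at 7 days than at 1 day by a difference of -0.24 ± 0.07 (limma, adjusted p = 0.0424). That call was lost in 12 of the 15 fits with 1 array left out, with values of -0.31 to -0.18. It was also lost with sex as a term (limma, adjusted p = 0.189) and with the mean over probe sets (-0.09, adjusted p = 0.416). Sufu, which holds GLI proteins in the cytoplasm, differed from control by -0.09 to 0.08 and was not called.

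Of 14 cilium transport genes, 1 was called. Rab34, a small GTPase needed to build the primary cilium in some cell types, had 8.99, 8.88 and 8.96 immediately after noise against 9.37, 9.26 and 9.20 in control mice. It fell by 0.33 ± 0.06 (limma, adjusted p = 0.0208, and 0.0449 with sex as a term). The call was lost in female arrays alone (-0.34, limma, adjusted p = 0.234) and without control mouse 1 (-0.29) or 2 (-0.34) or immediate mouse 2 (-0.30) or 3 (-0.34). At 1 day none of the 14 was called in limma's test and 4 had an unadjusted p under 0.05.

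Of 15 genes reported as GLI targets, 1 was called, Ccnd1, the cell cycle gene cyclin D1, which many other pathways also drive. It had 7.14, 7.30 and 7.45 in 1-day mice against 6.60, 6.99 and 6.76 in control mice. It rose by 0.51 ± 0.12 (limma, adjusted p = 0.0314, and 0.0715 with sex as a term). The call was lost without control mouse 1 (0.42) or 3 (0.50) or 1-day mouse 2 (0.51) or 3 (0.44). The median of the 15 genes was 0.09 immediately and -0.04 at 1 day, against -0.02 and -0.01 over all genes.

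**Figure D4:**
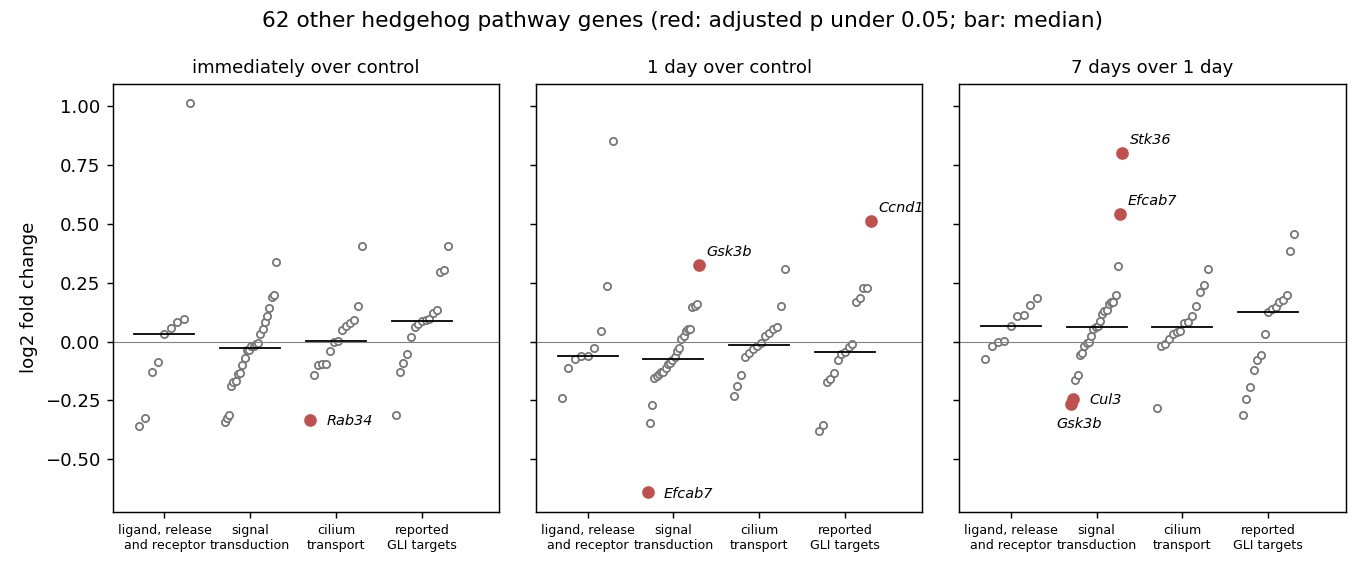
Log2 fold change (vertical axis) of 62 other pathway genes in 4 lists (horizontal axis), immediately over control, 1 day over control and 7 days over 1 day; red points passed limma's test at an adjusted p under 0.05 and bars are list medians. The called genes are Rab34 immediately, Efcab7, Gsk3b and Ccnd1 at 1 day, and Efcab7, Stk36, Gsk3b and Cul3 between 7 days and 1 day.

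At 7 and 14 days none of the 62 genes was called against control in limma's test, and 7 and 4 had an unadjusted p under 0.05, beside 1525 and 1071 of all 13644 genes. Between 7 days and 1 day 4 of 62 were called, and 3 of 62 at 1 day and 1 of 62 immediately after noise against control. These stand beside the 9.35%, 3.18% and 0.931% of all genes given above.

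Some pairs of the 9 genes varied together and others in opposite directions. Over the 15 arrays Shh and Dhh correlated at r = 0.81 (rho = 0.71), and at 0.63 once each group's mean was taken off. Shh and Ptch1 correlated at 0.37 (rho = 0.56) over all arrays and at -0.12 within groups. Shh and Gli1 correlated at 0.10 (rho = 0.10) over all arrays and at 0.70 within groups, and Smo and Gli3 at 0.49 (rho = 0.57) and 0.76. Dhh and Gli2 correlated at -0.61 (rho = -0.51) and at -0.53 within groups, and Gli3 and Hhip at -0.50 (rho = -0.51) and -0.58. The 36 pairs ran from -0.61 to 0.81. The arrays share their normalization and fall into 5 groups, and these values are descriptions with no test.

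For each gene, the other genes with the most similar signal over the 15 arrays were found among all genes tested. Ptch1 was closest to Srek1ip1 (r = 0.95, within groups 0.91), Nabp1 (0.95, within groups 0.85) and Fa2h (0.94, within groups 0.65), the last an enzyme that makes the hydroxylated lipids of myelin. Gas1 was closest to Mcmbp (0.93), Oxct1 (0.90) and Gpd2 (0.90), and Smo to Cct7 (0.92), Crtap (0.90) and Ap3b1 (0.89). Shh was closest to Rrp7a (0.88, within groups 0.59), Fdps (0.86, within groups 0.40) and Fgfbp3 (0.84, within groups 0.92), of which Fdps makes precursors of cholesterol, the lipid that hedgehog ligands carry.

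Dhh was closest to Gm5126 (r = 0.88), Igsf23 (0.84) and Plppr2 (0.83), and Gli1 to Stk16 (0.91), Nudt16 (0.87) and Iba57 (0.85). Gli2 was closest to Lrrc41 (0.85), Dph7 (0.85) and Alg1 (0.84), and Gli3 to Bhlhe41 (0.86), Ctdsp2 (0.79) and Rhbdf1 (0.79). Hhip was closest to Ppp2r1b (0.82), Sik2 (0.77) and the gap junction gene Gja1 (0.77). Each set holds the highest correlations of 15 values out of all genes tested, so high values arise by the choice itself.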

How the data were processed

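The deposited table holds log2 signals per probe set of 15 arrays. The authors' log2 values came from Affymetrix Expression Console with RMA and MAS5, per the submitters' processing notes, and the one behind this table was not given in the sources used here. They were used as deposited. Of 45101 probe sets, 34945 were paired with 1 gene by the platform annotation. Each of 18193 genes was represented by its probe set with the highest mean, and the lowest 25% of genes (mean log2 under 4.70) were left out, leaving 13644, with all 9 members among them. Group means were fitted over all 15 arrays in limma 3.58.1 (R 4.3.3; lmFit, eBayes with a mean-variance trend), two-sided, with Benjamini-Hochberg adjustment over all genes. The labels give separate animals per array; scan batches were not used here. The other pathway genes named are those called in a contrast, at most 5 per list and contrast, with Ihh, Sufu, Boc and Cdon always named; 1 further gene of that rule is not reported here. For likeness, the 3 genes with the highest correlation were named. Members and lists were chosen with earlier results of these data known. The fit was tested on simulated data. Replicate numbers were not used to pair the samples. Deviations of same-numbered arrays from their group means correlated at -0.33 to 0.30 over 30 pairs (median 0.06). Those of differently numbered arrays correlated at -0.49 to 0.37 over 60 pairs (median -0.03). Such wide ranges cannot exclude handling shared by number. Sex as a term, other filters, other choices of probe set, quantile normalization, array weights, no trend, a replicate block, single arrays left out and, added after seeing the data, female arrays alone were tried. The number of arrays limits the precision.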

Additional observations from a re-analysis of the deposited data

How the results depend on the processing

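In the comparisons where they were called, no member or other pathway gene changed sign under any alternative. This holds for the brightest probe set and for the mean over probe sets, and does not cover dimmer probe sets by themselves. On the Ptch1 probe set 1450824_at the difference was 0.17 ± 0.13 at 1 day and -0.01 ± 0.13 between 7 days and 1 day. Because the members were picked on these arrays, their counts of calls describe the choice, and nothing is read from them. Members called immediately after noise were 1 in the fit reported. They were 0 with sex as a term, the mean over probe sets, quantile normalization, no mean-variance trend or female arrays alone. At 1 day they were 1, and 0 with sex as a term, the mean over probe sets or no trend. At 7 days they were 0, and 1 (Shh) with the lowest 50% of genes left out or every probe set by itself. Between 7 days and 1 day they were 2, and 1 with sex as a term or array weights, 0 with the mean over probe sets and 3 with every probe set by itself. Cul3 between 7 days and 1 day also lost its call without the filter, without the trend and with array weights, and Ccnd1 gained one there with the mean over probe sets. With 1 array left out they ranged over 0 to 1 immediately, 0 to 1 at 1 day, 0 to 1 at 7 days, 0 to 0 at 14 days and 1 to 2 between 7 days and 1 day. Other pathway genes called numbered 1 immediately, against 2 with every probe set by itself, 5 with array weights, 2 with the replicate block and 0 in female arrays alone. At 1 day they numbered 3, against 1 with sex as a term, 5 with every probe set and 5 with array weights. Between 7 days and 1 day they numbered 4, against 2 with sex as a term and 8 with every probe set. With 1 array left out they ranged over 0 to 2, 1 to 4, 0 to 0, 0 to 0 and 2 to 7 in the same order of comparisons. The labels link same-numbered arrays by that number alone, so the replicate block is not a paired analysis. Calls over all genes were 127 immediately (8 in female arrays alone to 757 with array weights, 29 to 171 with 1 array left out), 434 at 1 day (75 with sex as a term to 1106 with array weights, 108 to 585), 3 at 7 days (2 to 16, and 2 to 50), 0 at 14 days (0 to 1) and 1276 between 7 days and 1 day (449 with sex as a term to 1809 with every probe set by itself, 426 to 1327). Where an alternative uses fewer arrays it has less power; otherwise the cause of a change was not tested. With 3 mice a group, 15 arrays and signals of Gli1, Stk36 and the dim probe sets near the filter level, small differences were not detectable. Female arrays alone hold no 1-day mouse and gave no 1-day value.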
